A study of Mus musculus with 12 samples.

Results

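The data described here compare the response of mouse embryonic stem cells to 3 h of Activin A between cells with and without the ubiquitin ligase Arkadia. They come from 8 of the series' 12 RNA libraries, 2 from each of 4 cell lines of the 129SvEv strain. WT lines 18 and 26 are wild type, and lines 25 and 39 are Arkadia -/- (null). The members were fixed by treatment and genotype: for each line, the log2 level of every gene in the dish held in the inhibitor SB431542 (SB) was subtracted from its level in the 3 h Activin A dish, and the changes of the null lines were compared with those of the WT lines. Per the labels' protocols, every line was kept with LIF and with inhibitors of GSK3 and MEK, spent 24 h in N2B27 medium without these on fibronectin, and then 4 h in 10 µM SB431542, which blocks the type I receptor kinases of Activin, Nodal and TGFβ. The SB dish was harvested then, and the other dish was washed and given 10 ng/ml Activin A for 3 h. Each line stands for 1 dish per treatment, and the labels do not say how the null lines were derived or whether lines of a genotype share a parent clone. Because no dish was washed and left without Activin, the 3 h change also holds the loss of the inhibitor, the medium change and the time in culture, which cannot be told apart from the ligand.

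Activin and Nodal bind type II and type I receptor kinases, which phosphorylate SMAD2 and SMAD3. The phosphorylated SMADs join SMAD4, enter the nucleus and act with DNA-binding partners such as FOXH1. SnoN (gene Skil) and SKI are corepressors that bind SMADs on DNA, and SMAD7 blocks the receptor. Arkadia is the product of Rnf111. It is an E3 ubiquitin ligase of the RING type and marks SnoN, SKI and SMAD7 for degradation. In embryonic stem cells this pathway drives feedback inhibitors such as the Lefty proteins and, at higher doses, genes of the primitive streak.

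Rnf111 marked the genotypes as labelled. It stood at 4.27 and 3.85 FPKM in SB and at 3 h in WT line 18, at 3.89 and 3.76 in WT line 26, at 0.855 and 0.832 in null line 25 and at 0.681 and 0.650 in null line 39. FPKM are reads scaled to transcript length and library size. The null minus WT difference was −1.52 in SB and −1.47 at 3 h on the scale of log2(FPKM + 1), which is used for all changes below (SE 0.101, limma adjusted p = 0.00104 and 0.000950). The labels do not say which part of the gene is disrupted, so the remaining signal was not assigned to a stretch of it. Pluripotency genes were present in all 8 libraries, with Pou5f1 at 562 to 884 FPKM and Lin28a at 91.9 to 123. Depth, read from the steps between low FPKM values and given relative to the shallowest library of the series, was 1.47 to 1.81 in SB, 1.52 to 1.57 in WT lines at 3 h and 1.22 to 1.33 in null lines at 3 h. Summed FPKM in SB was 578104, 584627 and 604602 in lines 18, 26 and 25 but 722232 in null line 39, whose SB library stands apart. At 3 h it was 710393 to 785508.

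Of 12823 genes tested, only 3 had a 3 h change that was called different between the genotypes (0.0234%). A gene is called here when its Benjamini-Hochberg adjusted p in limma is under 0.05. The 3 genes, Gal, Gm44732 and Tdgf1, all changed less in the null lines. Standard errors, intervals and p-values come from a fit to all 12 libraries, so the 6 h dishes enter the variance. In the limma fit to only the 8 SB and 3 h libraries 0 differences were called. The adjusted p was then 0.427 for each of the 3 genes. The response itself was broad. In WT lines 2728 genes rose (21.3%) and 2044 fell (15.9%), and in null lines 1986 rose (15.5%) and 1802 fell (14.1%). With quantile normalization the WT calls were split into 2072 higher and 2481 lower. Without the cell line as a block no difference was called, at 654 genes with an unadjusted p under 0.05, and each of the fits that left out 1 line also called 0. The p-values rest on 2 lines per genotype and measure the spread between single dishes of these lines. An exact permutation test of 2 lines against 2 cannot give a two-sided p below 0.333.

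Gal, which encodes the neuropeptide galanin, had the largest of the called differences (chromosome 19, 3409910 to 3414794, minus strand, mm10). It went from 0.301 to 9.89 FPKM in WT line 18 and from 0.185 to 11.7 in WT line 26. It went from 0.487 to 1.59 in null line 25 and from 0.190 to 1.14 in null line 39. All lines started at a low level, and at 3 h both WT lines were far above both null lines. Gal rose by 3.24 log2 units in WT lines and by 0.83 in null lines, a difference of −2.42 (SE 0.166, 95% interval −2.82 to −2.02, adjusted p = 0.0211). Null lines thus had 25.5% of the WT log2 change and 9.78% of the WT increment in FPKM. In the 6 h dishes of the same lines Gal stood at 5.70 and 7.29 FPKM in WT lines 18 and 26 against 1.37 and 0.949 in null lines 25 and 39.

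Tdgf1 encodes Cripto, the membrane-bound co-receptor through which Nodal signals (chromosome 9, 110939601 to 110946232, minus strand). It rose from 13.9 to 280 FPKM in WT line 18 and from 16.6 to 300 in WT line 26. In null lines 25 and 39 it rose from 19.8 to 210 and from 23.4 to 259 FPKM. The null lines began above both WT lines and ended below both. Tdgf1 had a log2 change of 4.17 in WT and 3.38 in null lines (difference −0.79, SE 0.065, adjusted p = 0.0419). At 6 h the genotypes overlapped, with 225 and 257 FPKM in WT and 214 and 270 in null lines. Its pseudogene Tdgf1-ps1, which may take reads from Tdgf1 and makes both values uncertain, changed by 3.84 in WT and 3.22 in null lines (difference −0.62, adjusted p = 0.260).

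Gm44732 (chromosome 7, 143458334 to 143461095) has the same start and end as Cdkn1c, a cyclin-dependent kinase inhibitor gene on the other strand. The use of strand in counting is not given in the sources used here. The signal of Gm44732 therefore cannot be told apart from that of Cdkn1c. Gm44732 went from 9.33 to 26.7 and from 21.6 to 54.9 FPKM in WT lines 18 and 26, and from 32.2 to 43.7 and from 25.1 to 34.1 in null lines 25 and 39. The 3 h levels of the genotypes overlapped, while both null lines were above both WT lines in SB. On the log2 scale Gm44732 rose by 1.36 in WT and 0.43 in null lines (difference −0.94, SE 0.062, adjusted p = 0.0211). Cdkn1c, named here because of this overlap and after its values were seen, changed by 1.32 and 0.55 (difference −0.77, adjusted p = 0.101).

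**Figure D1:**
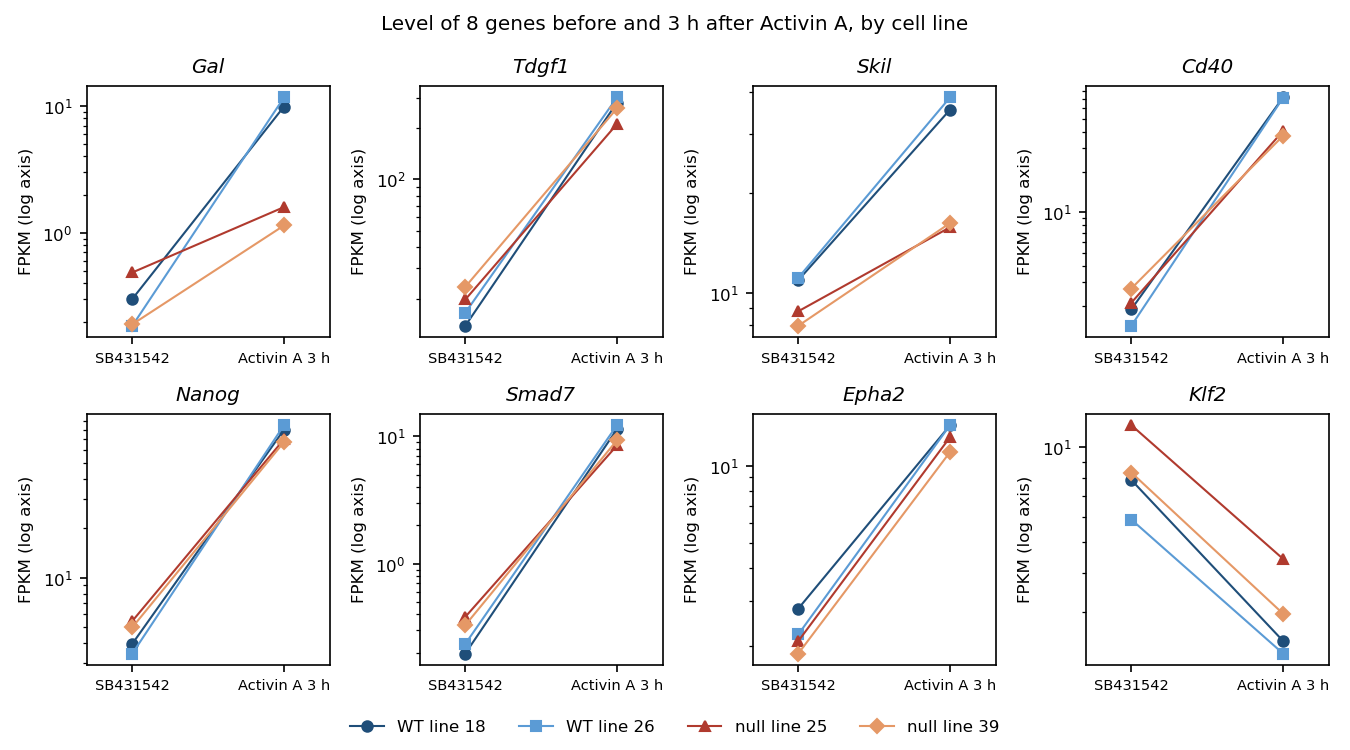
FPKM on log axes of 8 genes in SB431542 and after 3 h of Activin A, with 1 point per library and a line joining the dishes of each cell line. Gal reached 9.89 and 11.7 FPKM in the WT lines but 1.59 and 1.14 in the null lines, and Epha2 rose in parallel in all 4 lines.

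Among the intracellular inhibitors of the pathway, Skil is the gene of the Arkadia substrate SnoN. It went from 10.9 to 35.5 FPKM in WT line 18 and from 11.1 to 38.6 in WT line 26, but from 8.81 to 15.7 in null line 25 and from 7.97 to 16.2 in null line 39. Both null lines were below both WT lines in SB and at 3 h, and again at 6 h (28.6 and 28.2 FPKM in WT, 14.1 and 14.0 in null lines). The log2 change was 1.66 in WT and 0.86 in null lines, both called. Their difference of −0.81 (SE 0.082, 95% interval −1.0 to −0.61) had an unadjusted interval clear of 0 but an adjusted p of 0.101 and was not called. Null lines had 51.5% of the WT log2 change and 29.1% of the WT increment in FPKM. Ski, the related corepressor gene, rose by 0.67 in WT and 0.76 in null lines. Its difference of 0.09 had an interval from −0.17 to 0.36, which excludes a difference of the size measured for Skil, and its sign turned without line 18 (−0.02).

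The feedback inhibitor genes Lefty1, Lefty2, Smad7 and Pmepa1 rose in both genotypes. Lefty1, a secreted Nodal antagonist, went from 0.0210 to 93.8 and from 0.0516 to 111 FPKM in WT lines, and from 0.109 to 70.5 and from 0.127 to 49.4 in null lines. Its log2 change was 6.64 in WT and 5.75 in null lines (difference −0.89, adjusted p = 0.260). Lefty2, its neighbour on chromosome 1, changed by 5.56 and 4.55 (difference −1.01, adjusted p = 0.260). Smad7 went from 0.198 to 11.4 and from 0.235 to 12.2 FPKM in WT lines, and from 0.383 to 8.46 and from 0.330 to 9.30 in null lines (log2 changes 3.39 and 2.86, difference −0.53, adjusted p = 0.274). For Lefty1, Lefty2 and Smad7 both null lines changed less than both WT lines. Pmepa1, a TGFβ-induced membrane protein that sequesters SMADs, went from 0.0911 to 9.50 and from 0.117 to 9.58 FPKM in WT lines, and from 0.0449 to 3.71 and from 0.279 to 3.43 in null lines. Its 3 h levels did not overlap between the genotypes, and its log2 changes were 3.25 and 1.98 (difference −1.27, adjusted p = 0.188). Its deposited locus covers a fraction of 0.012 of the annotated gene, so the value describes only that stretch. Bambi, a decoy receptor gene, rose by 1.03 in WT and 0.58 in null lines (difference −0.46, adjusted p = 0.283), while the inhibitory SMAD gene Smad6 rose by 0.83 in both. Of the 23 tested genes of SMAD pathway inhibitors and feedback, 12 rose and 2 fell in WT, 11 rose and 1 fell in null lines, and 0 were called for the difference. The median change of the list was 0.29 in WT and 0.28 in null lines. Both null lines lay below both WT lines for 8 of the 23 and above for 4, where 26.2% of all genes tested lay below and 18.5% above. Under quantile normalization the list lay below for 7 and above for 6, and its median difference was −0.04 in place of −0.08. The background was then 2453 genes below and 2688 above, in place of 3364 and 2378.

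Among ligands, receptors and transducers, Nodal itself went from 7.98 to 57.5 and from 7.36 to 56.6 FPKM in WT lines. In null lines it went from 8.72 to 40.8 and from 7.69 to 43.5. All 4 lines started together and separated by 3 h, by log2 changes of 2.74 and 2.23 (difference −0.51, 95% interval −0.83 to −0.19, adjusted p = 0.294). The transducer genes moved little. Smad2 had differences of 0.01 (95% interval −0.14 to 0.17), Smad3 of 0.14 (−0.22 to 0.49), Smad4 of −0.07 (−0.28 to 0.15) and Foxh1 of 0.13 (−0.12 to 0.38) between the genotypes in the 3 h change. Bmpr2, a type II BMP receptor gene, rose in both genotypes, by 1.00 and 1.23. Of the 25 tested genes in the list, 9 rose and 3 fell in WT, 7 rose and 0 fell in null lines, and Tdgf1 was called for the difference. Over all genes tested 21.3% rose and 15.9% fell in WT lines, and 15.5% rose and 14.1% fell in null lines. Both null lines lay below both WT lines for 4 of the 25 (16%) and above for 8 (32%). The shares over all genes tested were 26.2% and 18.5%.

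Nanog, a pluripotency transcription factor, went from 3.95 to 80.0 and from 3.45 to 85.1 FPKM in WT lines. In null lines it went from 5.44 to 69.9 and from 4.98 to 67.2. The null lines began above both WT lines and ended below them. Nanog had a log2 change of 4.15 in WT and 3.49 in null lines (difference −0.67, 95% interval −0.95 to −0.38, adjusted p = 0.252). Irf1, an interferon regulatory factor, changed by 4.10 and 3.62 (difference −0.48, adjusted p = 0.272).

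Cd40, whose product is a costimulatory receptor, went from 1.89 to 72.1 and from 1.42 to 71.5 FPKM in WT lines, and from 2.11 to 40.5 and from 2.69 to 37.2 in null lines. The 3 h levels did not overlap between the genotypes. The log2 change was 4.78 in WT and 3.55 in null lines (difference −1.23, SE 0.136, 95% interval −1.56 to −0.90, adjusted p = 0.101). At 6 h the genotypes overlapped, at 30.8 and 26.7 FPKM in WT and 28.0 and 30.4 in null lines.

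Of the 8 tested mesendoderm genes, a list of the primitive streak and its derivatives, 6 rose in each genotype and 0 were called for the difference. Both null lines lay below both WT lines for 4 of the 8 and above for 0, against 26.2% and 18.5% of all genes tested. The organizer homeobox gene Gsc changed by 2.89 and 2.13 (difference −0.76, adjusted p = 0.272) and the growth factor gene Fgf8 by 3.00 and 2.26 (difference −0.74, adjusted p = 0.357), with null line 39 at 3.67 FPKM and null line 25 at 6.53 at 3 h. Wnt3 changed by 2.11 and 1.64 (difference −0.46, adjusted p = 0.334). Eomes, a T-box gene of mesendoderm, rose by 1.51 in WT and 1.29 in null lines, and its difference of −0.22 had an interval of −0.47 to 0.03. With FPKM summed over loci the Eomes difference was −0.04. Both null lines then lay below both WT lines for 3 of the 8 mesendoderm genes. T (Brachyury) rose by 1.07 and 1.09, from 0.384 to 2.11 and from 0.497 to 1.95 FPKM in WT lines and from 0.145 to 1.46 and from 0.379 to 1.90 in null lines, with a difference of 0.01 (−0.35 to 0.37). The sign of that difference turned under quantile normalization (−0.0027) and without line 26 or 25.

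Across the 30 tested Activin/Nodal targets, a list that shares members with the pathway lists above, 22 rose in WT and 22 in null lines. Their median change was 1.54 in WT and 1.14 in null lines, and the median difference was −0.24, against −0.03 over all genes tested. An unadjusted p under 0.05 stood at 13 of them with a difference below 0 and at 1 above, where the background was 8.95% and 3.49% (1148 and 448 genes, or 603 and 566 under quantile normalization). Both null lines lay below both WT lines for 16 of the 30 and above for 6 (26.2% and 18.5% over all genes tested). The median difference stayed below 0 under each scaling, filter and pseudocount tried and without each line, between −0.51 and −0.11. Fgf15, a secreted growth factor gene, changed by 3.02 and 2.76 (difference −0.26, adjusted p = 0.467).

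Id genes, which encode inhibitors of basic helix-loop-helix factors and are read as BMP targets, differed between genotypes mainly in level. Id1 went from 12.2 to 41.0 and from 11.4 to 46.4 FPKM in WT lines, but from 47.5 to 104 and from 36.0 to 87.7 in null lines. Null lines were above WT lines in both treatments. The log2 change was 1.80 in WT and 1.19 in null lines (difference −0.61, adjusted p = 0.371), whereas the null increment in FPKM was 169% of the WT increment. Id3 fell from 74.4 to 43.5 and from 75.5 to 48.0 FPKM in WT lines and from 136 to 101 and from 130 to 96.6 in null lines (difference 0.27, adjusted p = 0.294). Id2 changed by 0.38 and 0.35. Msx1, a homeobox gene among the BMP targets, rose by 2.56 and 2.46 (difference −0.10, 95% interval −0.44 to 0.23). Of 17 tested BMP targets, 10 rose in WT and 9 in null lines, and 2 fell in each. Both null lines lay below both WT lines for 4 (23.5%) and above for 2 (11.8%), against 26.2% and 18.5% over all genes tested.

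**Figure D2:**
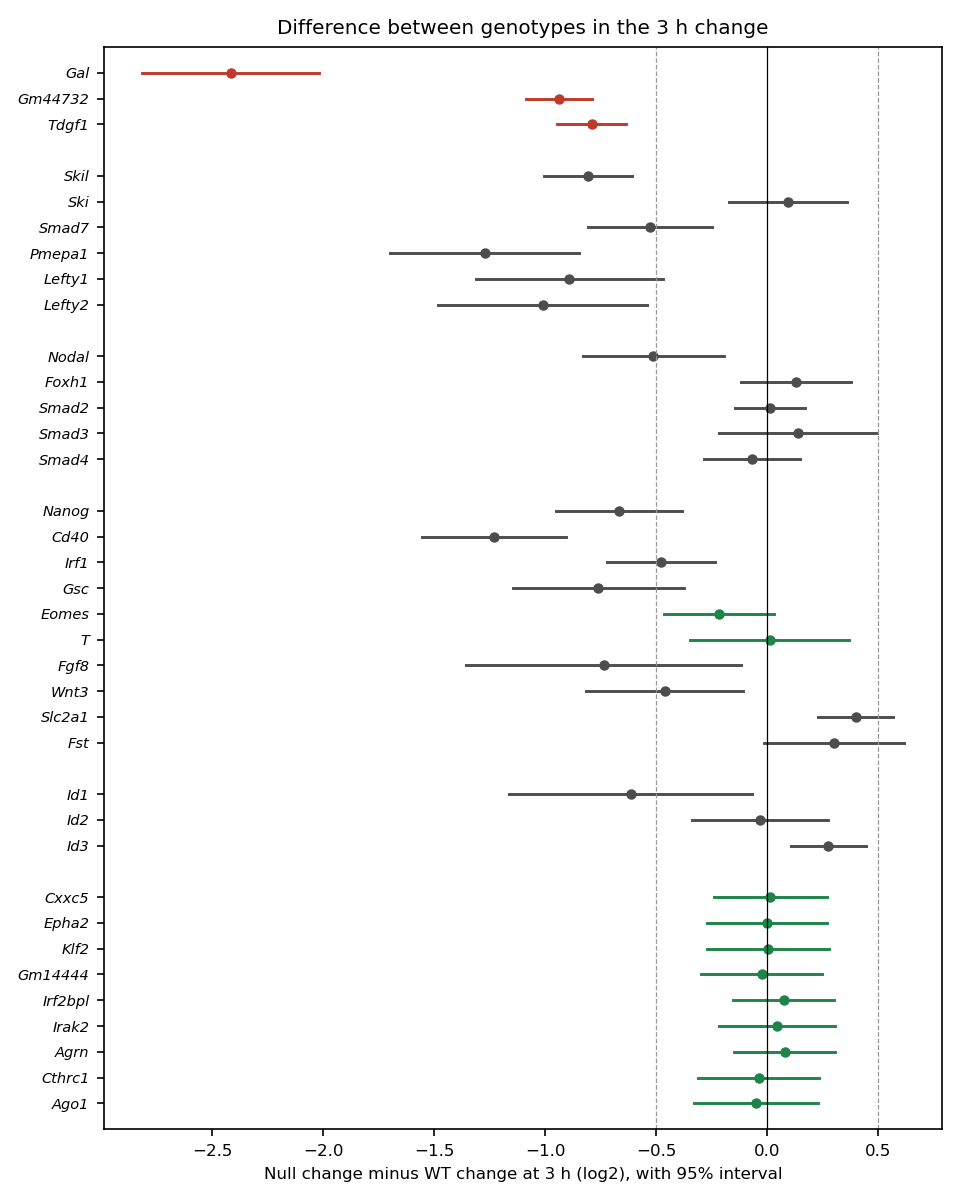
Null minus WT difference in the 3 h change (log2, horizontal axis) for named genes, with 95% intervals, grouped from the top as called genes, inhibitors, ligand and transducers, other named genes, Id genes, and responders whose interval reaches least far from 0. Red marks the 3 called genes, green marks responders of at least 2-fold whose interval lies within 0.5 of 0 (dashed lines), and grey marks the rest.

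The other side of the comparison is the set of responses for which the data bound a genotype difference. Among the responders whose interval reached least far from 0 were Cxxc5, Epha2, Klf2, Gm14444, Irf2bpl, Irak2, Agrn, Cthrc1 and Ago1. They were chosen for that reach among responders of at least 2-fold, and the intervals are per gene and unadjusted. The choice itself favours narrow intervals and null changes close to the WT changes. Epha2, an ephrin receptor tyrosine kinase gene, went from 2.80 to 14.3 and from 2.22 to 14.3 FPKM in WT lines and from 2.10 to 12.9 and from 1.88 to 11.3 in null lines. The log2 change was 2.13 in both genotypes (difference −0.0012, 95% interval −0.27 to 0.27). Klf2, a transcription factor gene of naive pluripotency, fell in each line, from 7.88 to 2.43 and from 5.90 to 2.21 FPKM in WT and from 11.8 to 4.42 and from 8.32 to 2.96 in null lines. Its log2 change was −1.24 in WT and −1.23 in null lines (difference 0.0033, 95% interval −0.27 to 0.28). Cxxc5, a zinc finger gene, rose by 1.07 and 1.09, and Irf2bpl by 1.17 and 1.25. Agrn, which encodes the basement membrane proteoglycan agrin, rose by 1.05 and 1.13. Ago1, a small RNA-binding Argonaute gene, rose by 1.21 and 1.16, and Cthrc1, a secreted collagen triple helix protein gene, by 1.01 and 0.97. For these 9 genes the outer bound of the interval was at most 0.33 from 0. It passed 0.5 for Klf2 (0.731) and Gm14444 (0.634) without the cell line as a block, and for Ago1 without line 18 (0.537). With 1 line left out, the bounds of the other 8 genes reached at most 0.499. The Irak2 locus covers 0.287 of its gene, so its value is less certain.

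The 6 largest WT falls had wide intervals for the difference. D930015M05Rik, which overlaps Cry2, fell by 3.19 in WT lines, from 24.9 to 0 FPKM in line 18 and from 48.9 to 14.5 in line 26. Its difference had an interval from −0.96 to 5.83. Ctrb1, Gm42884, Boc and Runx1t1, each read from a partial locus, fell by 2.05, 1.55, 1.53 and 1.53 in WT lines and had changes of 0.44, 0.09, −0.29 and 0.25 in null lines. Their unadjusted intervals lay above 0, towards no fall in null lines, at 0.58 to 4.40 for Ctrb1, 0.14 to 3.15 for Gm42884, 0.42 to 2.07 for Boc and 0.17 to 3.39 for Runx1t1. The adjusted p-values were 0.307 to 0.379, so none of these 4 differences was called. The null lines began lower: null minus WT in SB was −2.40, −1.23, −0.67 and −1.14 for these 4 genes in the order given. At 3 h it was 0.09, 0.41, 0.57 and 0.64. Ctrb1 stood in SB at 13.1 and 3.22 FPKM in WT lines and at 1.13 and 0 in null lines. The null lines thus had less to fall from, and the genes were chosen for their large WT falls. Sorcs2 fell by 1.74 in WT and 2.10 in null lines with a difference of −0.36 (95% interval −1.93 to 1.20) whose sign turned without line 18. The rise of Gm20496 in WT lines, by 4.28, rested on a level listed at 0 in WT line 26 against 14.3 FPKM in WT line 18 in SB, on a locus that overlaps Psmb8. Its difference of 0.81 had an interval from −2.48 to 4.10. Slc2a1, a glucose transporter gene, fell from 133 to 44.7 and from 131 to 48.0 FPKM in WT lines and from 116 to 55.2 and from 110 to 49.2 in null lines, with a difference of 0.40 (95% interval 0.23 to 0.57, adjusted p = 0.252). Fst, the secreted Activin antagonist follistatin, fell by 0.42 in WT lines and had a change of −0.12 in null lines (difference 0.30, adjusted p = 0.419).

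The region before the start site of 3 of these genes is shown to set a gene with a called difference and a gene that moved beside it against a gene with a bounded difference. The sequences come from RefSeq (GRCm38.p6) and are written in the direction of transcription; capitals mark CAGAC, the letters that SMAD3 and SMAD4 bind, and TGTNNATT, a FOXH1 motif, on either strand. They are the stretches before the deposited locus at chr9:110946233-110946408 for Tdgf1 (minus strand), chr6:122707239-122707488 for Nanog and chr4:141300971-141301220 for Epha2 (plus strand).
Tdgf1 promoter: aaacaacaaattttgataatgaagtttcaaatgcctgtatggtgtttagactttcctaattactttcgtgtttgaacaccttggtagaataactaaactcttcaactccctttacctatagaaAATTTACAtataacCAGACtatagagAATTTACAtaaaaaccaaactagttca
Nanog promoter: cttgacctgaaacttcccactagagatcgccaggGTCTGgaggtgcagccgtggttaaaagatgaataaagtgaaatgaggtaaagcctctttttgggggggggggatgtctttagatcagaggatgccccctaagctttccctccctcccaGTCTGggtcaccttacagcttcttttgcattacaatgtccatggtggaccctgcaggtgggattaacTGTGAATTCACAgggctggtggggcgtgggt
Epha2 promoter: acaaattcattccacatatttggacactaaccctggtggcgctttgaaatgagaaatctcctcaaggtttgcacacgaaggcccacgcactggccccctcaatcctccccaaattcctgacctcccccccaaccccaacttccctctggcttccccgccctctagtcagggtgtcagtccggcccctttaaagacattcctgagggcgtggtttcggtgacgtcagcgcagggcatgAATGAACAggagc
In the 250 bases before the start, Tdgf1 held 1 CAGAC and 2 TGTNNATT, Nanog 2 and 2, the latter overlapping each other, and Epha2 0 and 1. CAGAC stood in 42.1% and TGTNNATT in 11.1% of the 27025 genes with such a window. Of the 275 genes that rose at least 2-fold in WT lines, 176 had a window, and 42.6% and 10.2% of these held the motifs. Of the 48 of them with a bounded difference, 34 had a window, and 52.9% and 11.8% held the motifs. Other named genes did not follow the 3 windows shown. Gal, with the largest called difference, held 2 CAGAC and 0 TGTNNATT, and Nodal held 0 and 0. Irf2bpl, with a bounded difference, held 1 and 0. The 3 windows therefore do not stand for their classes, and a match to these letters describes the sequence only.

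Against the size of the WT response, the 275 genes that rose at least 2-fold and were called in WT lines were split by the genotype difference. It was called for 3, bounded within 0.5 for 48, and unresolved for 224. In the null lines 238 of the 275 rose and 37 were not called. The difference was below 0 for 245 and above 0 for 30, with an unadjusted p under 0.05 for 118 below and 1 above. The median share of the WT log2 change found in null lines was 76.6%. The null change was under 50% of the WT change for 47 genes and at least equal to it for 30. Of the 44 genes that fell at least 2-fold in WT lines, 0 were called for the difference, 5 were bounded and 39 unresolved, 18 fell in null lines, and the difference was above 0, towards a smaller fall, for 41. The loci of 83 of the risers and 23 of the fallers were partial. The WT libraries enter both the choice of these genes and the difference, so these counts lean towards smaller null changes whatever the genotype does.

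**Figure D3:**
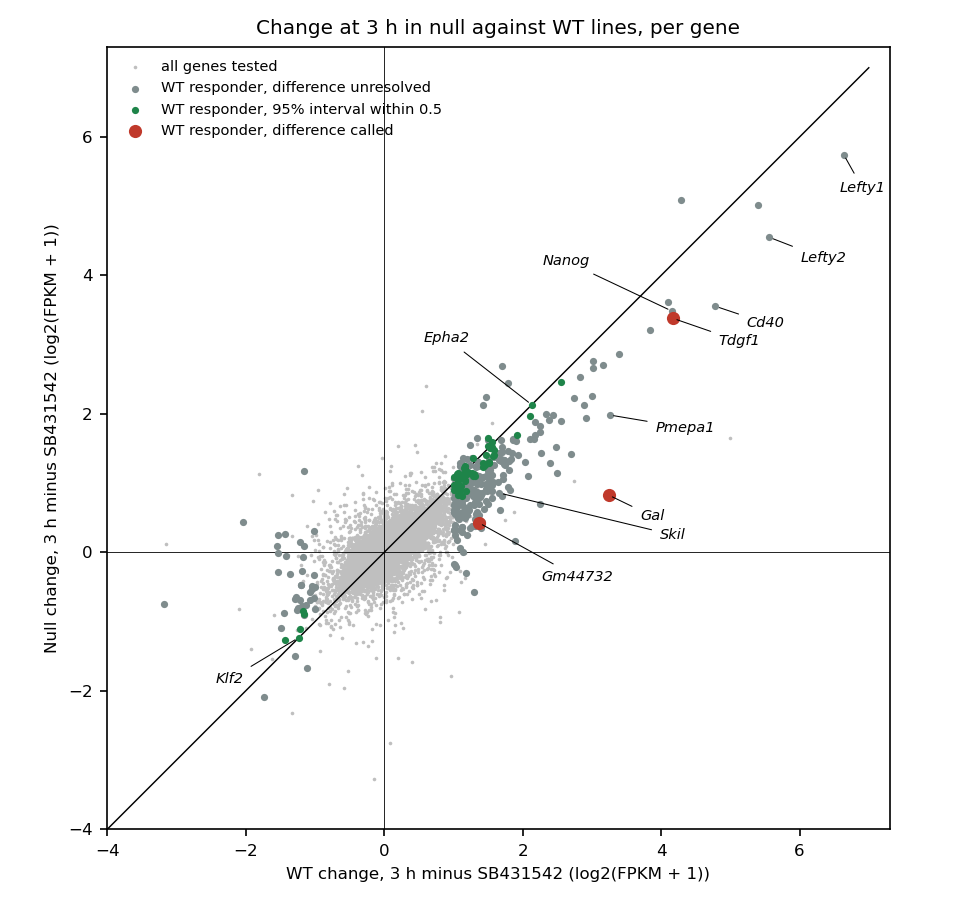
Change at 3 h in null lines (vertical axis) against WT lines (horizontal axis), both log2, for each of the 12823 genes tested; the diagonal marks equal changes. Gal lies farthest below the diagonal among the called genes (3.24 in WT, 0.83 in null lines), and Epha2 (2.13 in both) lies on it.

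For the 245 risers with a smaller null change, the difference can be placed in the SB level or in the 3 h level. The larger part lay in the 3 h level for 169 genes and in the SB level for 76. The null mean was above the WT mean in SB for 158 and below it at 3 h for 205. The median null minus WT value was 0.09 in SB and −0.33 at 3 h. These genes were chosen on the same SB and 3 h values. The choice itself favours null levels that are higher in SB or lower at 3 h, whatever the genotype does. The same split was not made over all genes tested. Gal, Skil and Cd40 belong to the group with the larger part at 3 h, at −2.32, −1.16 and −0.87 there against 0.10, −0.36 and 0.36 in SB. Tdgf1 and Nanog belong to the other group, at −0.31 and −0.26 at 3 h against 0.48 and 0.40 in SB. Gm44732 differed by 0.95 in SB and 0.01 at 3 h. Levels in the 6 h dishes do not enter the 3 h change. There both null lines were below both WT lines for 103 of the 275 risers (37.5%) and above for 51 (18.5%). Over all genes tested these shares were 25.7% and 23.7%. For the 44 genes that fell at least 2-fold in WT lines they were 36.4% (16 genes) and 9.09% (4 genes). Lower null levels at 6 h were thus not particular to the risers.

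To read the share kept in lines that took no part in choosing the genes, genes were chosen by their change in 1 WT line and read in the other lines. For the 365 genes with a log2 change of at least 1 in WT line 18, the median change was in null line 25 79.1% and in null line 39 75.2% of that in WT line 26. For the 346 genes chosen on WT line 26 and compared with WT line 18, the shares were 91.8% and 84.3%. The mean of these 4 shares was 82.6%. In the reverse direction, genes chosen on null line 25 changed in WT lines 18 and 26 by 109% and 123% of their change in null line 39, and genes chosen on null line 39 by 106% and 113% of their change in null line 25. No test is given, since genes are not replicates.

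Among genes chosen on WT line 18, the 52 with a change above 2 had a median of 2.39 in WT line 26, 1.95 in null line 25 and 1.80 in null line 39, a null mean of 78.5% of the WT value. The 313 genes between 1 and 2 had medians of 1.01, 0.82 and 0.75 (77.4%), and the 1132 between 0.5 and 1 had 0.57, 0.51 and 0.34 (74.4%). Chosen on WT line 26, the shares of the null mean in these bins were 77.1%, 85.4% and 75.0%. The single null lines went different ways from the largest to the smallest bin. Null line 39 kept 75.5%, 73.9% and 58.8% with genes chosen on line 18 and 75.9%, 82.7% and 59.1% with genes chosen on line 26, while null line 25 kept 81.6%, 80.9% and 90.0%, and 78.4%, 88.0% and 90.9%. Genes that fell by more than 1 in line 18 kept 104% in null line 25 and 56.0% in null line 39, and those chosen on line 26 kept 82.6% and 46.4%. Genes that fell by 0.5 to 1 kept 89.2% and 70.3%, and 72.9% and 67.2%.

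Null line 39 lay below null line 25 in each rising bin, by most between 0.5 and 1. Most of the 76 ribosomal protein genes read here fell in that bin, where all bins together held 12823 genes. They were still a small part of it, 42 of the 1132 and 41 of the 1095 genes. The bin medians without these genes were not computed. The median change of the 76 ribosomal protein genes was 0.54 and 0.55 in WT lines 18 and 26. It was 0.49 in null line 25 but 0.21 in null line 39. Ribosomal protein genes held 17.5% of the FPKM of null line 39 in SB, against 15.3% to 16.0% in the other lines. The part of this library in the smaller shares of line 39 was not tested beyond the single-line values given.

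**Figure D4:**
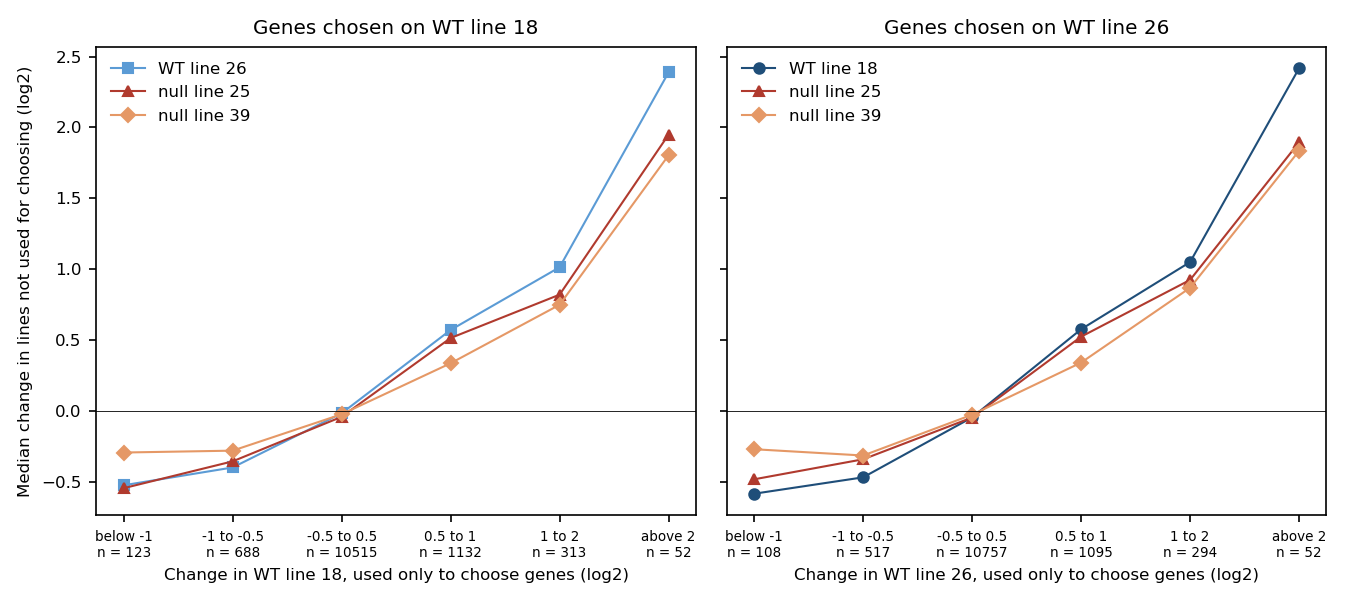
Median change (log2) in the lines that took no part in choosing the genes, for 6 bins of the change in WT line 18 (left) or WT line 26 (right); the number of genes stands under each bin. In the bins above 1, both null lines lie below the other WT line.

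Lists of other processes gave 0 called differences outside Tdgf1, and their order between the lines varied. Of 20 genes of formative and primed epiblast, the state that follows naive pluripotency, 12 lay above in both null lines and 2 below; over all genes tested these shares were 18.5% above and 26.2% below. In WT lines 8 of the 20 fell and in null lines 2, where 15.9% and 14.1% of all genes tested did. Zic2, a zinc finger transcription factor gene, went from 18.5 to 10.8 and from 17.0 to 11.6 FPKM in WT lines and from 13.0 to 12.9 and from 12.8 to 11.2 in null lines. The SB levels of the genotypes did not overlap, and the 3 h levels did. Zic2 fell by 0.62 in WT lines and had a change of −0.10 in null lines (difference 0.52, 95% interval 0.28 to 0.76, adjusted p = 0.260). Pou3f1, a POU factor gene of the primed state, had changes of −0.26 and 0.10 (difference 0.36, adjusted p = 0.291), and Sall2 of 0.02 and 0.39 (difference 0.37, adjusted p = 0.291). The median change of the list was −0.17 in WT and 0.10 in null lines, and its median difference of 0.16 stayed above 0 in each alternative, between 0.12 and 0.27.

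Feedback genes of the ERK pathway, which FGF induces in these cells, lay above in the null lines for 9 of 16 and below for 1, with the same 18.5% and 26.2% over all genes tested as background for this and the lists that follow. Dusp4, a MAP kinase phosphatase gene, went from 32.8 to 13.7 and from 30.6 to 13.3 FPKM in WT lines and from 31.2 to 16.9 and from 24.8 to 13.4 in null lines (log2 changes −1.18 and −0.85, difference 0.33, adjusted p = 0.253). Spry4, an inhibitor gene of the same cascade, had changes of −0.58 and −0.20 (difference 0.38, adjusted p = 0.381). WNT targets lay above for 6 of 12 and below for 0, and 1 member fell in each genotype. Naive pluripotency genes lay above for 5 of 13 and below for 1, Nanog.

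Cholesterol synthesis genes lay below in the null lines for 11 of 18 and above for 1 (26.2% and 18.5% over all genes tested). Idi1, an isomerase of the mevalonate pathway, rose by 0.67 in WT and 0.50 in null lines (difference −0.18, adjusted p = 0.362). Msmo1, a sterol oxidase gene, rose by 0.53 and 0.30 (difference −0.23, adjusted p = 0.302). Under quantile normalization this list lay below for 3 and above for 3, with a median difference of −0.01 in place of −0.11. Immediate early genes lay below for 8 of 19 and above for 3. Junb, an AP-1 subunit gene, rose by 2.17 and 1.69 (difference −0.48, adjusted p = 0.293). Amino acid and unfolded protein stress genes lay below for 10 of 20 and above for 4, but below for 2 under quantile normalization. Mitosis genes lay below for 8 of 22 and above for 2, and below for 1 and above for 6 under that scaling. The list of hypoxia and glycolysis lay below for 4 and above for 4 of 26, p53 targets below for 7 and above for 3 of 17, S phase below for 4 and above for 4 of 21, and core pluripotency below for 5 and above for 4 of 19. Under quantile normalization these lists lay, in the same order, below for 2, 3, 2 and 4 and above for 7, 3, 5 and 7.

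**Figure D5:**
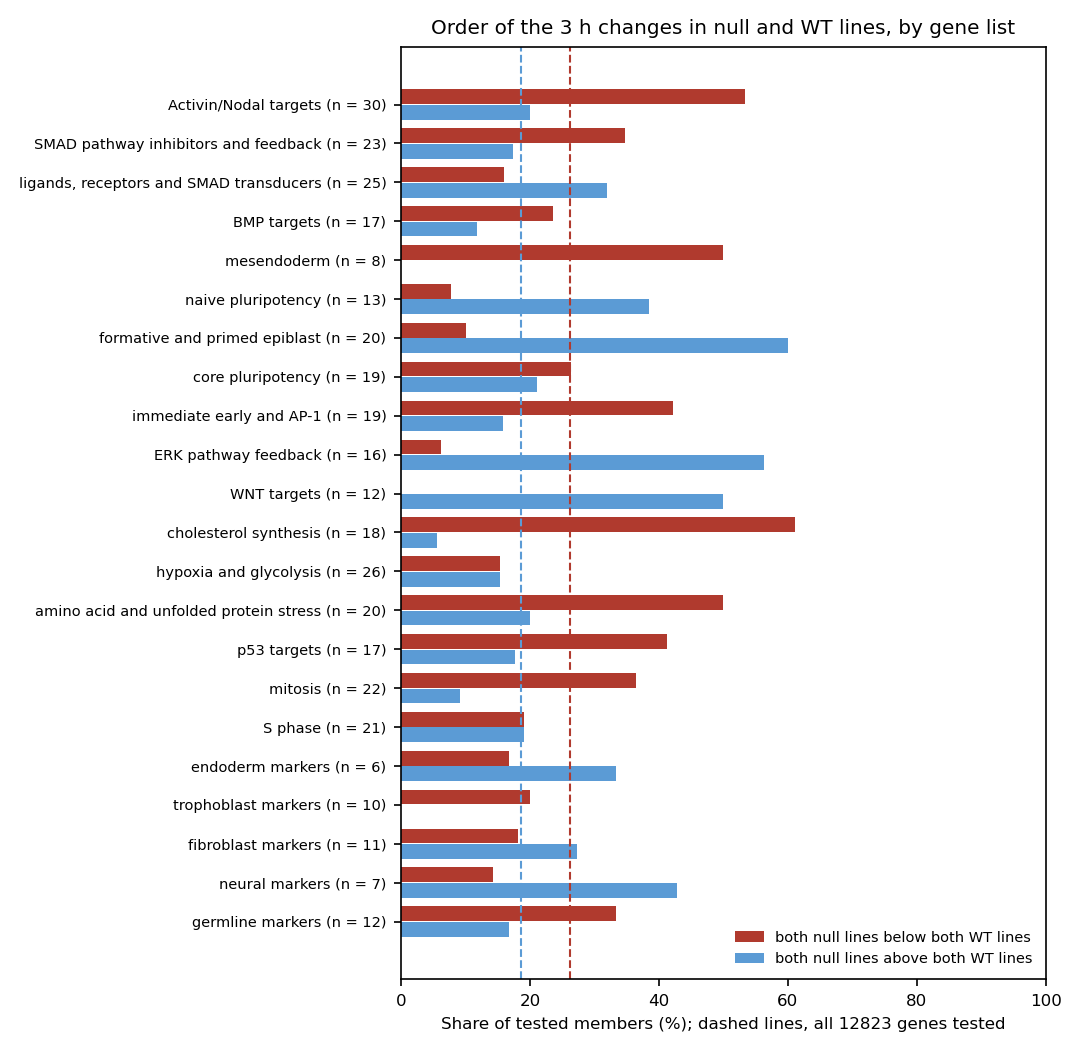
Share of the tested members of each gene list (percent, horizontal axis) for which both null lines changed less than both WT lines on the signed log2 scale (red) or more (blue); dashed lines give the shares over all genes tested, 26.2% and 18.5%. Activin/Nodal targets have 16 of 30 below, and formative and primed epiblast genes 12 of 20 above.

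Markers of other cell types were read beside these results. The summed level of 11 of 14 fibroblast markers was 360 to 400 FPKM in WT and 602 to 662 in null lines in SB, and 497 to 528 and 639 to 770 at 3 h, most of it from Tagln, Vim and Acta2. The collagen genes Col1a1 and Col1a2 reached at most 2.14 and 3.17 FPKM. The sum of 10 of 13 trophoblast markers was 89.8 to 90.0 in WT and 117 to 165 in null lines in SB, and 97.2 to 105 and 124 to 170 at 3 h, with Cdx2 at 0.924 to 1.49 and most of the level from Krt18 and Krt8. The sums of 9 endoderm markers ran from 13.7 to 16.4 in SB and from 14.3 to 23.1 at 3 h, with Sox17 at most at 0.4997. For neural markers the sums were 34.2 to 43.7 in SB and 30.1 to 36.4 at 3 h, and for germline markers 102 to 139 and 118 to 180. Both null lines lay below both WT lines in the 3 h change for 2 of 11 fibroblast, 2 of 10 trophoblast, 1 of 6 endoderm, 1 of 7 neural and 4 of 12 germline markers tested, and above for 3, 0, 2, 3 and 2. Their part in the differences was not tested. In bulk RNA, fewer responding cells and less RNA per cell cannot be told apart.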

How the data were processed

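Poly(A) RNA was sequenced as 50 bp single reads, per the labels' protocols. The deposited table gives FPKM per locus and library, computed by the authors, per the file headers, on mm10 (submitters' processing notes). Aligner and quantifier: not given in the sources used here. Every FPKM column matched a label (0 unmatched). Of 17446 loci, 2666 had no name and 27 named loci had a status other than OK; these and 1245 further loci of kept names were left out, giving 13508 genes. Read totals are unknown. A partial locus covers less of the gene than it leaves out in GENCODE M21 (2743 genes; 95.3% of names matched).

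The model was fitted with limma 3.58.1 (R 4.3.3) on log2(FPKM + 1) of all 12 libraries, keeping genes that reached an FPKM of 1 in 2 or more libraries. Terms were the cell line as a block and a 3 h and a 6 h change per genotype (4 residual degrees of freedom, variances moderated with a trend). P-values are two-sided and were adjusted over all genes by Benjamini-Hochberg, and all adjusted p-values of genes come from this fit, except those of the level of Rnf111 (fit without the block). The block is the line named in the labels; the differences between lines of a genotype correlated between SB and 3 h at 0.045 (WT) and 0.253 (null). The log2 scale with a pseudocount of 1 understates the changes of low genes.

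Named genes were those called for the difference, the 12 largest WT rises and 6 largest falls, the 10 responders of at least 2-fold whose interval for the difference reached least far from 0, a list of pathway genes (Mixl1 not analysed here), and called members of 22 gene lists (some genes are not reported here). The comparison, members and lists were chosen with earlier results of these data known. Motifs were searched in the RefSeq promoter table (30 of 57 named genes have a window).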

Additional observations from a re-analysis of the deposited data

Results flagged for a closer look

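The test of the difference between genotypes in the 3 h change picked out 3 genes, each with a smaller change in both null lines than in both WT lines. Gal had a difference of −2.42, Gm44732 of −0.94 and Tdgf1 of −0.79 on the log2 scale. Gm44732 cannot be told apart from Cdkn1c, and Tdgf1 may share reads with Tdgf1-ps1. No group has more than 2 lines, so no search for outlying samples was made.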

How the results depend on the processing

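The count of called differences was 3 with no filter on low values and with FPKM summed over loci, and 2 (Gm44732 and Tdgf1) at an FPKM minimum of 5. It was 1 under quantile normalization (Gal), and 0 with a pseudocount of 0.1, with only the 8 SB and 3 h libraries, and without the replicate block, each also the number of responders called; without each line in turn it was 0. The lowest adjusted p of Gal over the alternatives was 0.0212 and the highest 0.565. At an unadjusted p under 0.05 the count was 1596 in the reported fit, 1578 with that pseudocount, 1134 with 8 libraries, 654 without the block and 694 to 2043 without a line. The sign of the difference of each called gene held throughout.

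Without the replicate block 2882 genes were called in WT and 1749 in null lines, in place of 4772 and 3788, and 35 responders in place of 53 were bounded. With 8 libraries 2397 were called in null lines. Without a line the WT count ran from 347 (without line 18) to 4456, the null count from 449 (without line 25) to 2199, and the bounded count from 21 to 33; a genotype left with 1 line was assumed to vary like the other. Unresolved responders numbered 263, 558 with the pseudocount of 0.1 and 146 at the FPKM minimum of 5. The mean share kept ran from 81.1% to 86.1% over its alternatives.

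Signs turned for Rnf111 (−0.019) and T (−0.0027) under quantile normalization. Without a line they turned for Gm20496 (−1.04 to 2.67, reported as 0.81) and Sorcs2 (−1.08 to 0.35, reported as −0.36), and for the small differences of Ski (−0.016 to 0.20), T (−0.082 to 0.11) and Id2 (−0.16 to 0.091). Depth relative to the shallowest library was 1.22 to 1.81, and low genes are least precise in null lines at 3 h.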

Other observations

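The following genes were chosen after their values were seen. All except Prdm1 are those with the lowest p for the difference among genes not called and not described above. Zbp1, a sensor of nucleic acids in innate immunity, went from 0.112 to 4.78 and from 0.165 to 4.02 FPKM in WT lines 18 and 26, and from 0.0332 to 0.595 and from 0.0895 to 0.871 in null lines 25 and 39. The 3 h levels did not overlap, and at 6 h the levels were 4.84 and 6.19 against 1.75 and 1.71. Its difference was −1.54 (adjusted p = 0.159), on a partial locus that lies beside that of Pmepa1 on chromosome 2. Mkx, a homeobox gene, went from 0.636 to 8.30 and from 0.673 to 8.11 FPKM in WT lines and from 0.659 to 3.50 and from 0.641 to 3.95 in null lines (difference −0.96, adjusted p = 0.124). Abcg2, a membrane transporter gene, rose by 1.51 in WT and 1.06 in null lines (difference −0.45, adjusted p = 0.101), and at 6 h its levels in the 2 genotypes overlapped.

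Cyp51, a sterol demethylase gene of the cholesterol synthesis list, rose from 84.1 to 120 and from 79.2 to 105 FPKM in WT lines. In null lines it went from 76.9 to 70.1 and from 80.0 to 75.6. Its difference was −0.56 (95% interval −0.72 to −0.41, adjusted p = 0.117). Mrps16, a mitochondrial ribosomal protein gene, had changes of 0.46 and −0.07 (difference −0.53, adjusted p = 0.101), Cdk2ap1 of 0.67 and 0.00 (difference −0.67, adjusted p = 0.174), and Capg, an actin-capping protein gene, of 0.66 and 0.07 (difference −0.59, adjusted p = 0.174). For these 3 genes the null mean was above the WT mean in SB, by 0.48, 0.44 and 0.42. 4933440N22Rik, read from a partial locus, had changes of 0.50 and −0.14 (difference −0.63, adjusted p = 0.159). Gm12949 (adjusted p = 0.174) was the gene that fell at least 2-fold in WT lines (−1.16) and rose in null lines (1.17); it was at 3.29 and 16.2 FPKM in the WT lines in SB, so its lines differ widely.

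Prdm1, a transcription factor gene of germ cell specification read here from a partial locus, was not among the lowest p. It went from 1.95 to 5.89 and from 1.02 to 10.9 FPKM in WT lines and from 2.31 to 2.69 and from 1.34 to 1.64 in null lines. The log2 change was 1.89 in WT lines and 0.17 in null lines (difference −1.72, 95% interval −2.86 to −0.59, adjusted p = 0.307). The interval is wide because the WT lines themselves changed by 1.22 and 2.56.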
